A study of Macaca mulatta with 6 samples.

Results

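Ribosome biogenesis genes encode the factors that transcribe, modify, cut and fold ribosomal RNA and load ribosomal proteins onto it in the nucleolus. A list of 47 such genes was examined in RF/6A cells, and 45 of them were found by gene symbol among the 24932 genes of the deposited table. Members were taken by symbol from a list of what genes encode, and the rule used no measured value. Even so, this list and the gene lists set beside it were chosen with earlier results of these data known. WDR12 was not analysed here, and NPM1 is listed only under a gene identifier and is described apart.

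RNA polymerase I copies ribosomal DNA into a long precursor. Small nucleolar ribonucleoproteins (snoRNPs) of the box C/D kind guide 2′-O-methylation of the precursor and those of the box H/ACA kind guide pseudouridylation, and a sequence of assembly factors then builds the small and the large subunit. In many cell types this machinery is set by growth signals, and the transcription factor MYC is a known activator of its genes.

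RF/6A is an established rhesus macaque line described as choroidal endothelial. Cells were grown to confluence on porous inserts and then held for 4 hours in human serum at 50%. The 3 treated libraries came from cells in normal serum, in which complement is active and can build the membrane attack complex, and the 3 control libraries from cells in serum whose complement had been destroyed by heat. No library was made without serum, and complement was not blocked in another way, so complement cannot be told apart from other heat-labile parts of serum. The labels do not say whether replicates were separate cultures, so p-values reflect only library-to-library spread, part or all of which may be technical.

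Values are FPKM (fragments scaled by transcript length and by library depth), so levels below are per length. Transcripts of a gene were summed, and the 11818 genes whose mean reached 1 FPKM were compared with limma on log2(FPKM + 1), with a call at an adjusted p under 0.05. The replicate 2 and 3 libraries held between 14700000 and 17900000 fragments as read from their lowest values, while the depths of the replicate 1 libraries could be read only roughly. Between 11589 and 11837 genes reached 1 FPKM in each library. Of 10 endothelial markers 3 had a mean of 1 FPKM or more, and CDH5 was at 0 in every heat-inactivated serum library and near 0 in normal serum, whereas 6 of 6 fibroblast and mural markers reached that level. The summed level of those 6 lay between 2958 and 3089 FPKM in normal serum and between 6400 and 6904 FPKM in heat-inactivated serum. The sum of the 10 endothelial markers lay between 82.6 and 94.1 FPKM in normal serum. In heat-inactivated serum it lay between 67.5 and 69.0 FPKM. ENG made up most of this sum, with means of 74.2 FPKM in normal serum and 61.2 FPKM in heat-inactivated serum. The 3 tested, PECAM1, ESAM and ENG, were called higher (2.38-fold, 1.87-fold and 1.21-fold). The others were below the filter and did not move together. VWF was higher without overlap. KDR was lower without overlap (means of 0.105 FPKM in normal serum and 0.370 FPKM in heat-inactivated serum), and the groups overlapped for the rest. The part of these markers in the results below was not tested, and in bulk RNA fewer cells of a type and less RNA per cell cannot be told apart.

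Most of the ribosome biogenesis genes were higher in normal serum. Of the 43 members tested, 36 rose, 2 fell and 5 did not pass the threshold. Over all genes tested 54% were called, 27.8% higher and 26.1% lower. The median change was 0.71 on the log2(FPKM + 1) scale for these members and 0.01 for all genes tested. The rises were moderate, between 1.25-fold and 2.80-fold in mean FPKM with a median of 1.72-fold. In 7 of the 36 the fold was at least 2, in 20 it was between 1.5 and 2, and in 9 it was smaller. The 7 include NIP7 (2.36-fold, means of 2.09 and 0.884 FPKM), which passed the filter only through normal serum and is described below. A log2 change of at least 1 was reached by 5 members, beside 3.47% of all genes tested that were called higher by that much.

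The groups did not overlap for any called member. All 3 normal serum libraries stood above all 3 heat-inactivated serum libraries in 36 of 43 members (32.1% of all genes tested) and below them in 2 (30.5%). The sum over the 43 members lay between 2827 and 3060 FPKM in normal serum and between 1685 and 1901 FPKM in heat-inactivated serum. Levels spanned a wide range, with group means from 2.09 to 347 FPKM in normal serum and from 0.884 to 209 FPKM in heat-inactivated serum.

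**Figure D1:**
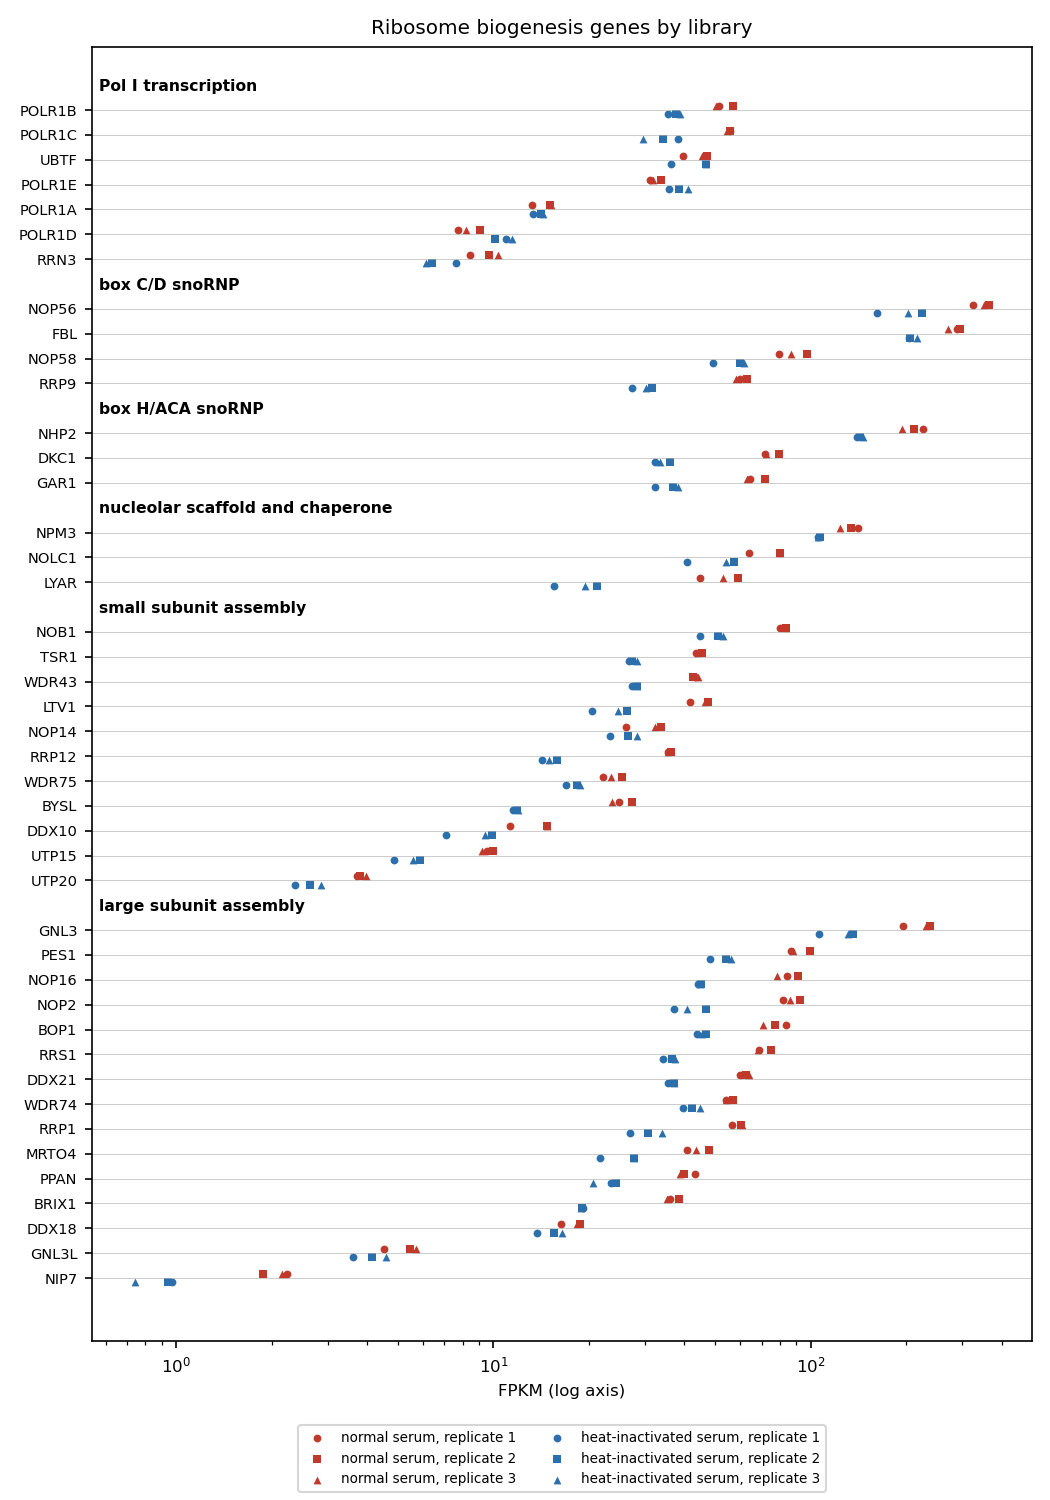
FPKM (log axis) of the 43 members tested, 1 point per library, grouped by role and ordered by mean level, with normal serum in red and heat-inactivated serum in blue. The colours separate in 38 rows, with blue to the right of red only for POLR1D and POLR1E.

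RNA polymerase I and its initiation factors were the role in which members moved in both directions. Of 7 genes 3 rose, 2 fell and 2 did not pass (42.9% higher and 28.6% lower, beside 27.8% and 26.1% of all genes tested). POLR1B, the second-largest subunit and the member of this role with the highest mean over all libraries, had 51.2, 56.9 and 50.1 FPKM in normal serum, against 35.5, 37.5 and 38.6 FPKM in heat-inactivated serum. It rose 1.42-fold (log2 change 0.49 ± 0.07 SE, limma adjusted p = 9.60e-04), with a clear gap between the groups. RRN3, which makes the polymerase competent to initiate, stood at 8.41, 9.69 and 10.3 FPKM in normal serum and at 7.63, 6.39 and 6.13 FPKM in heat-inactivated serum. Its rise of 1.41-fold (adjusted p = 0.0100) came with a narrow gap, the lowest normal serum library being 1.10 times the highest control library, and the call ended when libraries were brought to equal FPKM totals (adjusted p = 0.0989). POLR1C, a subunit shared with RNA polymerase III, averaged 55.3 ± 0.722 FPKM in normal serum and 34.0 ± 4.32 FPKM in heat-inactivated serum (SD, n = 3 each; limma adjusted p = 6.88e-04).

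The catalytic subunit and the promoter-binding factor gave no call. POLR1A, the largest subunit, had 13.2, 15.1 and 15.2 FPKM in normal serum, against 13.3, 14.2 and 14.3 FPKM in heat-inactivated serum. Those ranges overlap, and the log2 change was 0.05 ± 0.08 (SE; limma adjusted p = 0.580). With the trend with transcript length removed, POLR1A passed (log2 change 0.19, adjusted p = 0.0425). UBTF, which binds the ribosomal DNA promoter and upstream control element, had 39.5, 47.0 and 45.5 FPKM in normal serum, against 36.3, 46.6 and 46.9 FPKM in heat-inactivated serum, with a log2 change of 0.03 ± 0.12 (SE; limma adjusted p = 0.856). In both treatments its replicate 1 library was the lowest.

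A pair of polymerase subunits went the other way. POLR1D, which pairs with POLR1C in the enzyme, fell to 7.76, 9.06 and 8.22 FPKM in normal serum, against 11.0, 10.1 and 11.4 FPKM in heat-inactivated serum (log2 change -0.34 ± 0.08 SE, limma adjusted p = 0.0101). POLR1E, part of the subunit pair that stays on the outside of the enzyme, fell to 31.2, 33.8 and 31.8 FPKM, against 35.8, 38.4 and 41.0 FPKM in heat-inactivated serum (log2 change -0.24 ± 0.07 SE, limma adjusted p = 0.0212). These falls were small and rested on few libraries. Within replicates 2 and 3 POLR1D was no longer called (adjusted p = 0.0690). The POLR1E call ended without normal serum replicate 1 or 3 (adjusted p = 0.0592 and 0.0582) and without heat-inactivated serum replicate 2 or 3 (adjusted p = 0.0583 and 0.0744).

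Of 9 other genes of this step, which are not members, 4 rose and 0 fell. The called share was 44.4%, all higher, beside 54% of all genes tested (27.8% higher). CD3EAP (POLR1G), the partner of POLR1E, had 48.8, 62.6 and 56.0 FPKM in normal serum, against 15.5, 21.8 and 19.2 FPKM in heat-inactivated serum, and rose 2.97-fold (limma adjusted p = 1.12e-04) while POLR1E fell. CD3EAP overlaps ERCC1 on the opposite strand in human, and nothing in the name of the kit shows that strand was kept, so reads of the pair cannot be told apart. ZNRD1 (POLR1H), the subunit that acts in transcript cleavage, rose 1.57-fold, from the promoter selectivity complex TAF1D rose 1.54-fold and TAF1A 1.52-fold, whereas TAF1B and TAF1C did not pass (adjusted p = 0.330 and 0.0680). TWISTNB (POLR1F) averaged 5.49 ± 0.472 FPKM in normal serum and 5.74 ± 0.666 FPKM in heat-inactivated serum (SD, n = 3 each). The termination factor TTF1 and the nucleolar phosphoprotein gene TCOF1 were also not past the threshold (log2 changes -0.04 and 0.19).

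**Figure D2:**
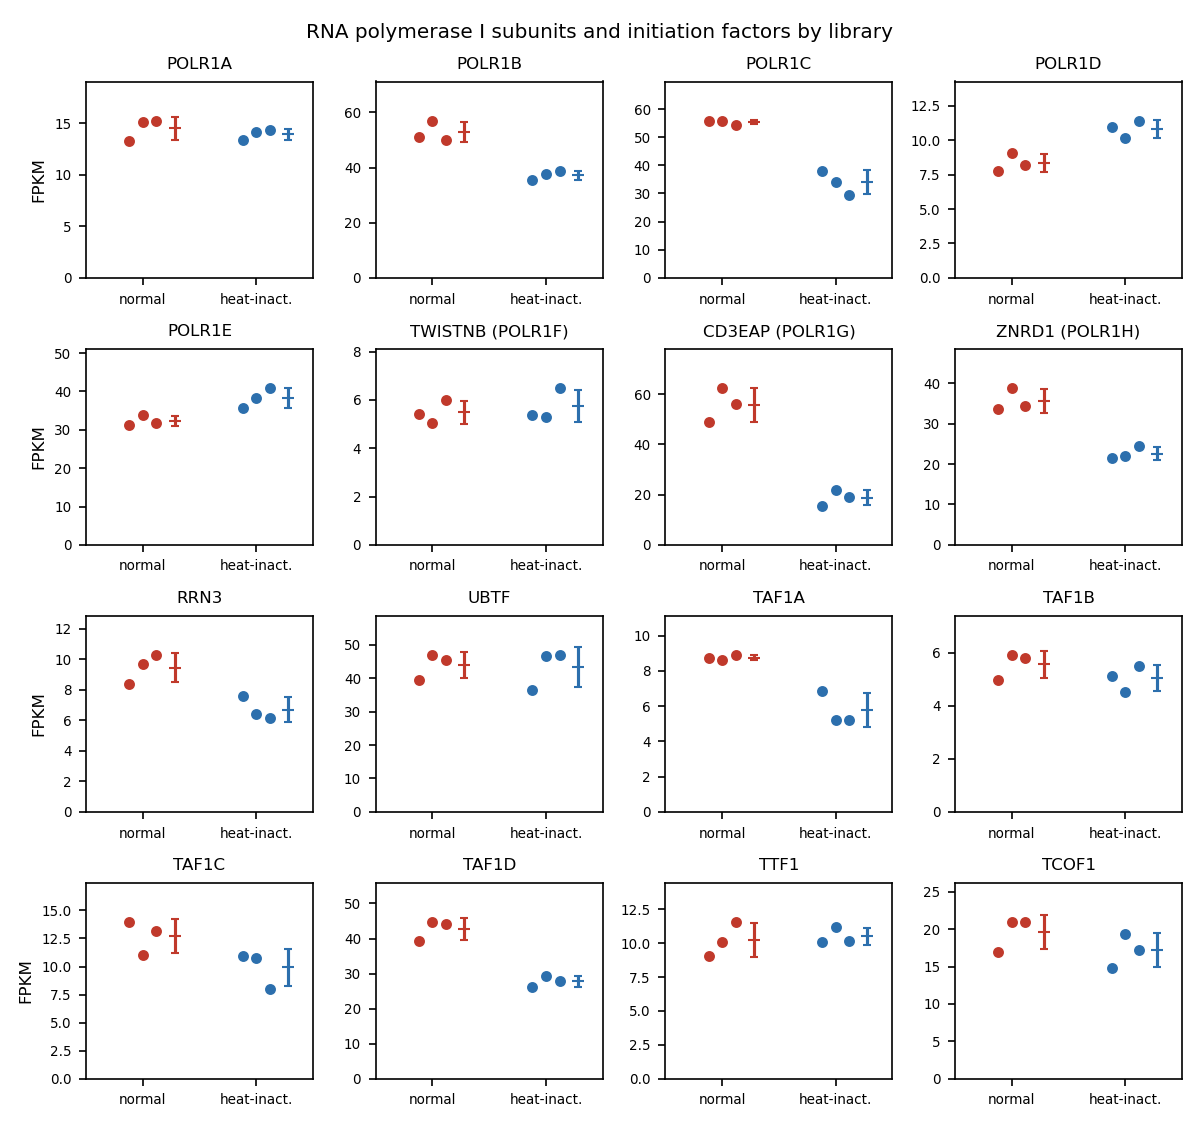
FPKM per library (points, with mean ± SD beside them, n = 3) of 16 RNA polymerase I subunits and initiation factors, each panel with its own axis from 0. POLR1B, POLR1C and CD3EAP stand higher in normal serum, POLR1D and POLR1E lower, and POLR1A, UBTF and TWISTNB overlap.

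The tested members of both classes of snoRNP rose. In the box C/D class 4 of 4 members were higher, beside 27.8% of all genes tested. NOP56, a scaffold of the particle and the most abundant member, had 326, 366 and 351 FPKM in normal serum, against 162, 224 and 203 FPKM in heat-inactivated serum (1.77-fold, limma adjusted p = 9.00e-04). Its paralogue NOP58 rose 1.54-fold. The methyltransferase FBL (fibrillarin) rose least, with 289, 295 and 271 FPKM in normal serum, against 204, 206 and 216 FPKM in heat-inactivated serum (1.36-fold, limma adjusted p = 6.28e-04). RRP9, a protein specific to the U3 particle that is needed for small subunit processing, rose most in this class, with 59.9, 63.0 and 58.2 FPKM in normal serum, against 27.3, 31.7 and 30.3 FPKM in heat-inactivated serum (2.03-fold, limma adjusted p = 4.74e-05).

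In the box H/ACA class 3 of 3 tested members were higher, beside 27.8% of all genes tested. DKC1 (dyskerin), the pseudouridine synthase, had 71.7, 79.3 and 72.1 FPKM in normal serum, against 32.3, 36.1 and 33.4 FPKM in heat-inactivated serum. The lowest normal serum library was 1.99 times the highest control library, and the rise was 2.19-fold (log2 change 1.11 ± 0.07 SE, limma adjusted p = 2.69e-05). GAR1 rose 1.86-fold to 66.4 ± 4.79 FPKM, against 35.8 ± 3.09 FPKM in heat-inactivated serum (SD, n = 3 each). NHP2, the most abundant of the class, had 226, 212 and 194 FPKM in normal serum, against 139.6, 143 and 146 FPKM in heat-inactivated serum (1.47-fold, limma adjusted p = 5.15e-04). NOP10 completes the particle, but its only row was listed at 0 in 4 libraries, with 0.227 and 0.193 FPKM in normal serum replicates 2 and 3, the value of 1 fragment each. That row lies on chromosome 11 of the table's build, while the RefSeq table of the T2T-MMU8v2.0 assembly places NOP10 on another chromosome, so the level of NOP10 was not established.

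Of 9 assembly helpers of these particles, none of them members, 4 were higher and 1 lower, a called share of 55.6% beside 54% of all genes tested. By direction 44.4% were higher and 11.1% lower, beside 27.8% and 26.1% of all genes tested. NAF1, which holds dyskerin during H/ACA assembly, rose 2.71-fold (7.04 ± 0.192 FPKM in normal serum and 2.60 ± 0.247 FPKM in heat-inactivated serum; SD, n = 3 each). NUFIP1, an adaptor in C/D assembly, rose 1.65-fold (adjusted p = 0.0187), and PIH1D1, of the complex that joins chaperones to these particles, fell by 0.29 on the log2 scale (adjusted p = 0.0182). The NUFIP1 call ended without normal serum replicate 1 (adjusted p = 0.0600). The PIH1D1 call ended within replicates 2 and 3 (adjusted p = 0.0761), without normal serum replicate 1 or 3 (adjusted p = 0.0550 and 0.0594) and without heat-inactivated serum replicate 2 or 3 (adjusted p = 0.0564 and 0.0553).

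Among nucleolar scaffold and chaperone genes, 3 of 3 tested members rose, beside 27.8% of all genes tested. LYAR, which encodes a nucleolar zinc finger protein, showed the largest rise of any member. It had 44.6, 59.2 and 52.9 FPKM in normal serum, against 15.5, 21.2 and 19.4 FPKM in heat-inactivated serum (2.80-fold, log2 change 1.44 ± 0.14 SE, limma adjusted p = 1.59e-04). The lowest normal serum library was 2.11 times the highest control library. NPM3, a small relative of nucleophosmin and the most abundant tested member of this role, had 141, 134 and 124 FPKM in normal serum, against 106, 107 and 106 FPKM in heat-inactivated serum. Its rise of 1.25-fold (adjusted p = 0.00380) was the smallest of the 36. NOLC1, a chaperone of snoRNPs, rose 1.47-fold (adjusted p = 0.0140). The NPM3 call ended with equal FPKM totals (adjusted p = 0.157) and after quantile normalization (adjusted p = 0.153). The NOLC1 call ended after quantile normalization (adjusted p = 0.0682) and without normal serum replicate 3 (adjusted p = 0.0523).

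Nucleolin and nucleophosmin, among the most abundant proteins of the nucleolus, were not measured like the others. NCL was listed at 0 in all 6 libraries in each of its 4 rows, which lie on an unplaced scaffold. All 1866 transcripts on unplaced scaffolds were listed at 0 in every library, against 34.3% of those on chromosomes, so these zeros say nothing about nucleolin. NPM1 was reached through the table of gene names and stood at 455, 571 and 565 FPKM in normal serum, against 407, 489.8 and 491 FPKM in heat-inactivated serum. The groups overlap, and the log2 change was 0.19 ± 0.11 (SE; limma adjusted p = 0.181), smaller than that of any called member that rose. NPM1 has many processed copies in primate genomes, and reads shared with them were not told apart.

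Small subunit assembly genes rose in 10 of 11 members (90.9%, beside 27.8% of all genes tested). RRP12, a repeat protein of late precursors and of their export, had 35.6, 36.4 and 35.5 FPKM in normal serum, against 14.3, 15.8 and 15.0 FPKM in heat-inactivated serum. It had the smallest adjusted p of the members (2.38-fold, log2 change 1.20 ± 0.06 SE, limma adjusted p = 1.11e-05), and the replicates of each treatment were almost alike. BYSL (bystin), which binds the same late particles, had 25.0, 27.3 and 23.6 FPKM in normal serum, against 11.5, 11.9 and 11.9 FPKM in heat-inactivated serum (2.15-fold, limma adjusted p = 3.92e-05). LTV1, an export and release factor, rose 1.89-fold and TSR1, a GTPase-like factor of the cytoplasmic steps, 1.62-fold. NOB1, the nuclease that makes the final cut of 18S rRNA and the most abundant of this role, had 79.8, 83.7 and 83.8 FPKM in normal serum, against 44.9, 51.0 and 52.8 FPKM in heat-inactivated serum (1.66-fold, limma adjusted p = 2.07e-04).

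The members of the early processome named next rose less in fold than RRP12 and BYSL, and NOP14 was not called. This did not hold for all processome genes, as NOL6, not a member, rose 2.24-fold. UTP15 and WDR43, of the subcomplex that binds the nascent precursor, rose 1.76-fold and 1.55-fold, and WDR75 of the same subcomplex 1.31-fold. The helicase gene DDX10 rose 1.55-fold. UTP20, a very large scaffold protein, rose 1.46-fold at a low level (3.82 ± 0.132 FPKM in normal serum and 2.63 ± 0.250 FPKM in heat-inactivated serum; SD, n = 3 each). NOP14 averaged 30.7 ± 3.99 FPKM in normal serum and 26.1 ± 2.56 FPKM in heat-inactivated serum (SD, n = 3 each; limma adjusted p = 0.131). The UTP20 and WDR75 calls ended with equal FPKM totals (adjusted p = 0.0530 and 0.0722).

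Of the 45 other small subunit genes measured, 38 rose and 0 fell (84.4% higher, beside 27.8% of all genes tested higher and 26.1% lower). Their largest changes were in NOL6, a processome protein (2.24-fold, 40.9 ± 1.28 FPKM in normal serum and 18.3 ± 0.437 FPKM in heat-inactivated serum; SD, n = 3 each), and RCL1, linked to processing at the 5′ side of 18S rRNA (2.14-fold).

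Large subunit assembly genes rose in 13 of 15 members (86.7%, beside 27.8% of all genes tested). NOP2, a methyltransferase of 28S rRNA, had 82.1, 92.5 and 86.1 FPKM in normal serum, against 37.1, 46.7 and 40.8 FPKM in heat-inactivated serum (2.09-fold, limma adjusted p = 1.13e-04). RRS1, which helps bring in the 5S ribonucleoprotein, had 68.7, 74.8 and 68.2 FPKM in normal serum, against 34.3, 36.5 and 37.5 FPKM in heat-inactivated serum (1.95-fold, limma adjusted p = 3.84e-05). In both genes the lowest normal serum library stood far above the highest control library.

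RRP1, BRIX1 and NOP16 moved by nearly the same amount. RRP1, a nucleolar factor of early large subunit precursors, had 56.3, 60.4 and 60.7 FPKM in normal serum, against 27.0, 30.7 and 33.9 FPKM in heat-inactivated serum (1.94-fold, limma adjusted p = 1.57e-04). BRIX1, a large subunit assembly factor, had 36.1, 38.4 and 35.3 FPKM in normal serum, against 19.2, 19.0 and 18.9 FPKM in heat-inactivated serum (1.92-fold, limma adjusted p = 3.20e-05). NOP16, another early factor, had 84.3, 91.2 and 78.6 FPKM in normal serum, against 44.2, 45.0 and 44.8 FPKM in heat-inactivated serum (1.90-fold, limma adjusted p = 5.30e-05). Control libraries of BRIX1 and NOP16 differed from each other by very little, with an SD of 0.132 and 0.395 FPKM.

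PES1 and BOP1, which form a complex with WDR12, rose 1.73-fold and 1.70-fold. GNL3 (nucleostemin), a nucleolar GTPase and the most abundant of the role, had 195, 238 and 231 FPKM in normal serum, against 106, 136 and 131 FPKM in heat-inactivated serum (1.78-fold, limma adjusted p = 8.35e-04). Its paralogue GNL3L was far less abundant and did not pass (5.22 ± 0.628 FPKM in normal serum and 4.11 ± 0.486 FPKM in heat-inactivated serum, limma adjusted p = 0.0681). The difference between the paralogues was not tested. Of the helicases, DDX21 rose 1.70-fold, while DDX18 averaged 17.8 ± 1.29 FPKM in normal serum and 15.2 ± 1.35 FPKM in heat-inactivated serum (limma adjusted p = 0.0747). PPAN, an early factor, MRTO4, a relative of the stalk protein P0, and WDR74, which works with the nuclear exosome, rose 1.78-fold, 1.71-fold and 1.31-fold. PPAN lies directly upstream of P2RY11 in human and is transcribed into it, and such read-through was not told apart.

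NIP7, a member of this role, appears under its symbol on chromosome X with 2.23, 1.88 and 2.15 FPKM in normal serum, against 0.971, 0.941 and 0.739 FPKM in heat-inactivated serum. These values rest on 13.0 to 46.0 fragments per library, and the gene, 1 of the 36 that rose, passed the filter on low values only through normal serum. An entry on chromosome 20 that the table of gene names also calls NIP7 was far more abundant (56.5, 60.5 and 56.2 FPKM in normal serum, against 36.8, 33.8 and 34.2 FPKM in heat-inactivated serum). Both were called higher, the chromosome 20 entry 1.65-fold (limma adjusted p = 1.18e-04). RefSeq places NIP7, NOP10, NOP14 and DDX18 on other chromosomes than their rows in the table, so these rows may hold copies or misplaced sequence, which was not tested.

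Of 47 other large subunit genes 28 rose and 2 fell (59.6% and 4.26%, beside 27.8% and 26.1% of all genes tested). EFTUD1 (EFL1), the GTPase that releases EIF6 from new large subunits, rose 2.67-fold (78.1 ± 4.66 FPKM in normal serum and 29.2 ± 1.47 FPKM in heat-inactivated serum; SD, n = 3 each), and the nucleolar GTPase gene GTPBP4 2.15-fold. The 2 that fell were GLTSCR2 (NOP53), a factor that recruits the exosome (258 ± 5.28 FPKM in normal serum and 381 ± 19.2 FPKM in heat-inactivated serum), and NSA2, a factor of nuclear precursors (182 ± 14.9 FPKM in normal serum and 253 ± 14.1 FPKM in heat-inactivated serum). Both were abundant, and their groups did not overlap (limma adjusted p = 2.34e-04 and 0.00182). Among subunits of the RNA exosome and of RNase MRP, which trim and cut the precursor, 14 of 20 tested rose (70%) and 0 fell. The largest rises were in the RNase MRP protein gene RPP40 (2.40-fold) and the exosome gene EXOSC9 (1.82-fold).

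**Figure D3:**
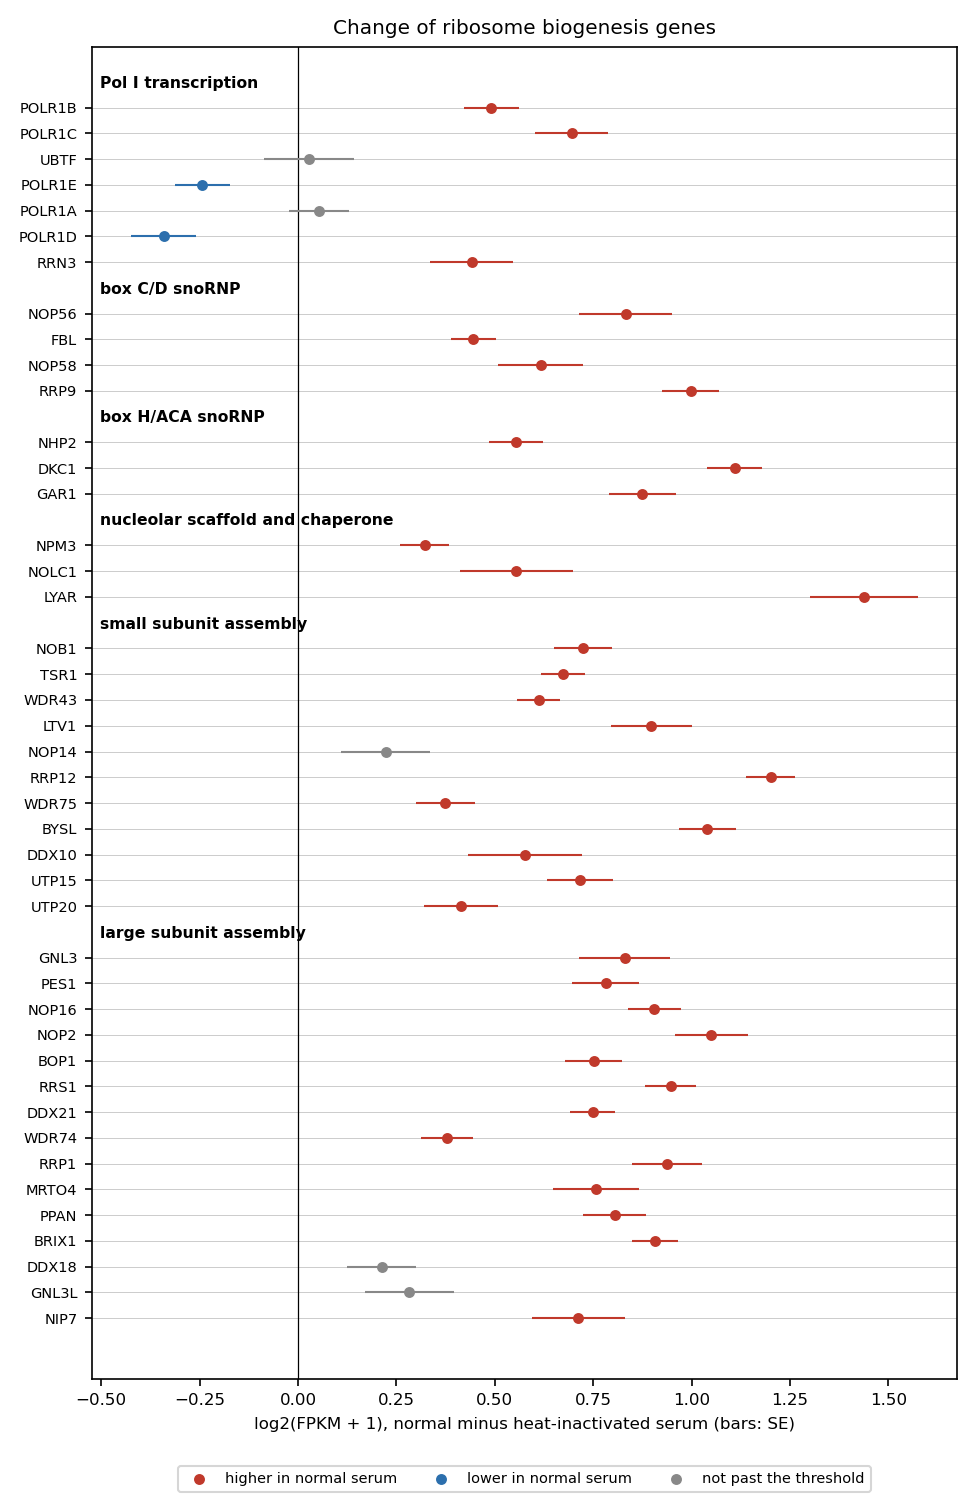
Change of each tested member, normal minus heat-inactivated serum on the log2(FPKM + 1) scale (points, with bars of 1 SE), grouped by role. LYAR, RRP12 and DKC1 lie farthest to the right, POLR1D and POLR1E lie left of 0, and the 5 grey genes did not pass the threshold.

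Across the whole pathway, 88 of 130 tested genes that are not members rose and 3 fell, with a median log2 change of 0.46. These are shares of 67.7% and 2.31%, beside 27.8% and 26.1% of all genes tested. Cytosolic ribosomal proteins, the main protein load of the finished particle, looked different, with 7 of 59 tested higher, 0 lower and a median of 0.06. Their called share of 11.9% was below the 54% of all genes tested. The 7 include RPSA (2.41-fold, means of 1.87 and 0.775 FPKM in normal and heat-inactivated serum), which passed the filter only through normal serum. The abundant ones among the 7 moved little, such as RPL36 (1.23-fold) and RPS12 (1.16-fold). Their levels were far higher, at a median of 2472 FPKM in normal serum and 2398 FPKM in heat-inactivated serum, and many have near-identical copies that share reads. The difference between the lists was not tested. Under quantile normalization the ribosomal proteins turned to 2 higher and 15 lower, and equal FPKM totals left 1 higher and 1 lower. Leaving out normal serum replicate 1, 2 or 3 gave 4, 2 and 10 ribosomal proteins called, and leaving out heat-inactivated serum replicate 1, 2 or 3 gave 4, 3 and 4. MYC had 193, 198 and 182 FPKM in normal serum, against 119.9, 123 and 115 FPKM in heat-inactivated serum (1.60-fold, limma adjusted p = 1.04e-04). MYCN was low and fell, at 1.42 ± 0.529 FPKM in normal serum and 2.82 ± 0.369 FPKM in heat-inactivated serum (SD, n = 3 each; limma adjusted p = 0.0119), a call that ended within replicates 2 and 3 (adjusted p = 0.0616).

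**Figure D4:**
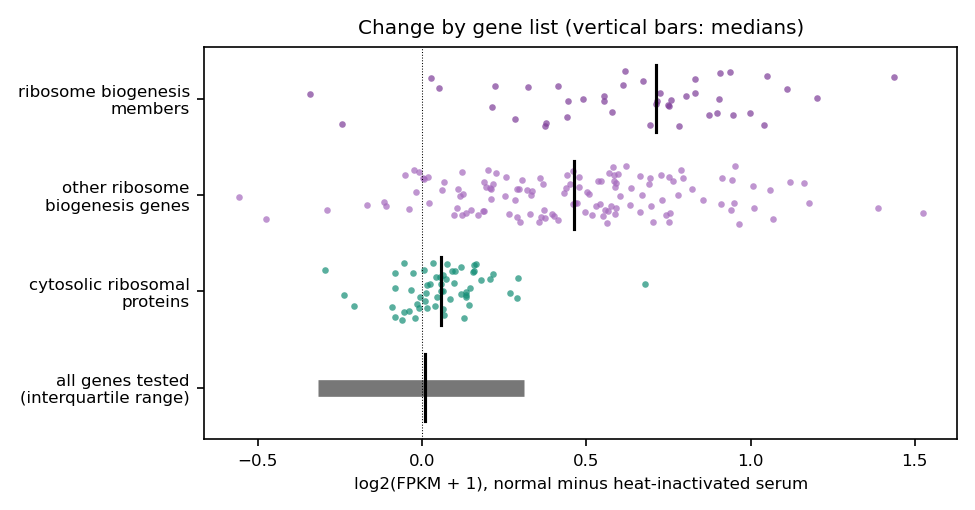
Change on the log2(FPKM + 1) scale, normal minus heat-inactivated serum, for 43 members, 130 other ribosome biogenesis genes and 59 cytosolic ribosomal proteins (points; vertical bars are medians), and the interquartile range of all 11818 genes tested (grey bar). The medians are 0.71, 0.46, 0.06 and 0.01.

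In RRP12 and NPM1 the split between transcripts varied more over replicates than the sum did. The table holds 68 rows for the 45 members, 15 of which have several. Of 54 member transcripts tested singly 40 were higher and 2 lower, beside 39.6% of all transcripts tested that were called, 21% higher and 18.6% lower. RRP12 has a pair of rows of 4329 and 4316 bases. The longer had 14.6, 33.1 and 25.6 FPKM in normal serum, against 6.61, 8.13 and 15.0 FPKM in heat-inactivated serum, and the shorter 21.0, 3.30 and 9.89 FPKM in normal serum, against 7.64, 7.68 and 0.0175 FPKM in heat-inactivated serum, while their sums barely varied. NPM1 showed the same exchange, its 885-base row holding 99.1% of the gene in normal serum replicate 1 and 99.5% in heat-inactivated serum replicate 1, but between 16.2% and 37.3% in normal serum replicates 2 and 3 and between 12.7% and 23.6% in the same replicates of heat-inactivated serum. In these genes the rows differ by a few bases in length, and only the sums are read here.

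Other members had rows that moved differently. The 4580-base row of DDX21 rose (57.3 ± 1.38 FPKM in normal serum and 30.6 ± 1.28 FPKM in heat-inactivated serum; SD, n = 3 each), whereas its 3279-base row stood at 4.81 ± 1.31 FPKM in normal serum and 6.02 ± 0.386 FPKM in heat-inactivated serum (SD, n = 3 each; limma adjusted p = 0.203). Both main rows of POLR1B rose, the 1377-base row by 0.89 and the 3695-base row by 0.22 on the log2 scale. In the authors' own Cuffdiff comparison the 3695-base row was not called (q-value 0.473), and the 1377-base row had the status LOWDATA. For LYAR the 1568-base row carried the call (adjusted p = 8.26e-04), and the 1469-base row varied between 3.93 and 22.0 FPKM in normal serum and between 1.31 and 5.40 FPKM in heat-inactivated serum (adjusted p = 0.0798). NOB1 kept its division, its 1440-base row holding 62.8% of the gene in normal serum and 63.7% in heat-inactivated serum. In the authors' deposited table, 55 member rows have the status OK, and 40 of them were higher and 2 lower at a q-value under 0.05, beside 41.1% of all such rows called, 20.6% higher and 20.5% lower. Those higher there include GNL3L and NOP14 (q-value 0.00679 and 0.0297), which did not pass here. DDX18, POLR1A and UBTF passed in neither comparison (q-value 0.0503, 0.644 and 0.872).

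**Figure D5:**
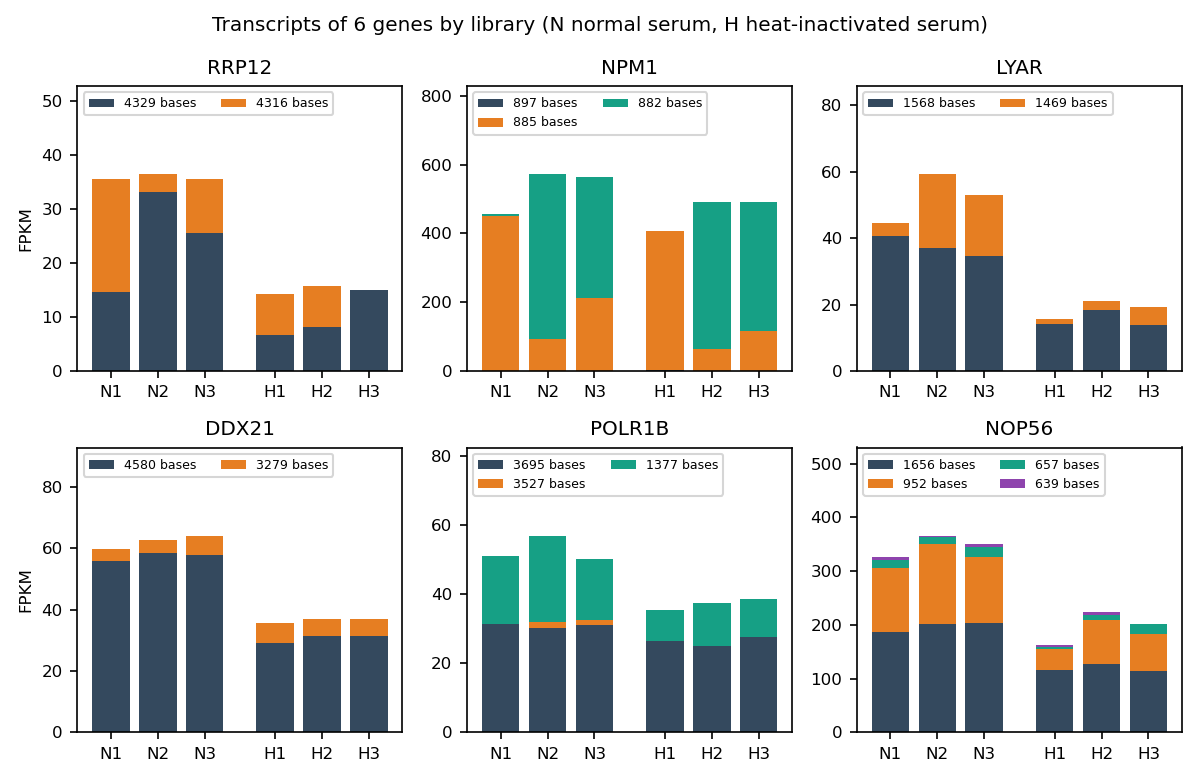
FPKM of each transcript (stacked, by length) in the 6 libraries for 6 genes. In RRP12 and NPM1 the shares change between replicates of a treatment while the bar heights vary less, and in DDX21 and POLR1B the division is steadier.

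Replicate 1 stood apart in many members. In 24 of 43 (55.8%) the replicate 1 library was the lowest of both treatments, as it was in 23.9% of all genes tested. Within replicates 2 and 3 alone 37 members rose and 1 fell, and 46.2% of all genes tested were called. The replicate 1 libraries number 1 per treatment and give no test by themselves. The FPKM totals lay between 980877 and 1016474 in normal serum. In heat-inactivated serum replicates 1, 2 and 3 they were 852828, 867794 and 1007949. With equal FPKM totals the median change of all genes moved to -0.12 and of these members to 0.58, and 32 members rose and 2 fell, beside 16.5% of all genes called higher. The same factor applied to every gene of a library, so the distance between these medians could hardly change. Across the 43 genes the change had a Spearman correlation of -0.13 with transcript length and of 0.27 with mean level, given as descriptions of genes measured in the same libraries.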

How the data were processed

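Polyadenylated RNA of 6 libraries was sequenced, 3 per treatment, and the labels gave each its treatment and replicate. The authors used TopHat2 2.0.7 along with Cufflinks 2.1.1 plus Cuffdiff 2.1.1 (per the submitters' processing notes), on a genome whose build was not given in the sources used here. Their deposited table gives the FPKM of every transcript in every library, as the authors computed it, and for each transcript the authors' own log2 fold change with its p-value and q-value.

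FPKM of rows with the same symbol were summed. A table of gene names supplied symbols for 256 of 7008 identifiers that lacked one. Genes whose mean reached 1 FPKM were compared on log2(FPKM + 1) by limma 3.58.1 (R 4.3.3), using trended empirical Bayes variances, Benjamini-Hochberg adjustment over all genes tested and no batch term, and checked on simulated data. Folds are ratios of mean FPKM, and log2(FPKM + 1) changes understate those of low genes. Depth was read from single-transcript genes, where low values in replicates 2 and 3 were whole multiples of 1 fragment within 0.1 for 100% of values, against 48.6% and 53.8% in normal and heat-inactivated serum replicate 1. FPKM are not counts, so errors of FPKM levels are the SD over 3 libraries. Errors of log2 changes are the SE from the limma fit.

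The members and lists were chosen with earlier results of these data known. Every member is named. Values of each library are given for the 10 largest rises and the falls among called members with separate groups, the most abundant member of each role, and POLR1A, POLR1B, RRN3 and UBTF, and for a few genes chosen after their values were seen (FBL, NIP7, NPM1 and CD3EAP). Of the other pathway genes the 2 largest called rises and falls of each role are named, and the remaining polymerase I factors were named after their values were seen. MYC and MYCN are given as context. Alternatives varied the pseudocount, filter, scaling, length trend, variance model, replicate terms, summing and libraries included.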

Additional observations from a re-analysis of the deposited data

How the results depend on the processing

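Under 21 alternatives (pseudocount, filter, scaling, length trend, variance model, transcript summing, libraries), between 34 and 41 members were called, 32 to 39 higher and 1 or 2 lower, and no called member changed sign. The share of all genes tested ran from 38.6% to 59.8% called and from 16.5% to 33.5% higher. Of 900 pairs of member and alternative, 869 kept call and sign, 12 lost the call, 13 gained it and 6 changed sign. Genes that were not called changed sign as follows on the log2 scale. With equal FPKM totals POLR1A stood at -0.082 and UBTF at -0.11. With quantile normalization UBTF stood at -0.13, NPM1 at -0.043 and TWISTNB at 0.034. Within replicates 2 and 3 UBTF stood at -0.017 and TTF1 at 0.016. With 1 library left out, UBTF ranged from -0.091 to 0.10, TTF1 from -0.12 to 0.041 and TWISTNB from -0.11 to 0.029. Members called lower numbered 1 within replicates 2 and 3, and 1 to 2 when 1 library was left out; single member transcripts called lower numbered 0 within replicates 2 and 3 (chosen after seeing the data). Equal FPKM totals left 1952 genes higher overall. Quantile normalization gave 5 other pathway genes lower. Ribosomal proteins called, 7 as given above, were 4 without a filter (4 higher), 2 with equal FPKM totals (1 higher, 1 lower), 17 with quantile normalization (2 higher, 15 lower), 13 with a term for replicate 1 (12 higher, 1 lower) and 2 within replicates 2 and 3 (2 higher). Removing the length trend gave 2 higher and 4 lower, and robust variance 1 lower. Leaving out 1 library gave 2 to 10 called, 2 to 9 higher and 0 to 1 lower. The cause was not tested.

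Same-numbered libraries did not pair clearly (correlations of deviations 0.19, 0.03 and 0.01), and normal serum replicates 2 and 3 correlated best with the other number. With a replicate block 41 members were called, 39 higher and 2 lower, beside 57.3% of all genes tested, 29.8% higher. NOP14, GNL3L and DDX18 were added, 1 ribosomal protein was lower, and NPM1 passed (adjusted p = 0.0159). The chromosome X entry of NIP7 rests on few fragments.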
